A study of Mus musculus with 22 samples.

Results

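The 9 genes of MHC class II antigen presentation measured here were the class II chains H2-Aa, H2-Ab1 and H2-Eb1, the peptide editors H2-DMa, H2-DMb1 and H2-DMb2, the invariant chain Cd74, the transactivator Ciita and the protease Ctss. They were chosen by symbol, ignoring case, from the deposited tables, and all 9 were found among the 24063 genes of a first set of tumours and the 24019 genes of a second set. All 9 also passed the filter on low values in both sets. The 22 samples were untreated liver tumours of C57BL/6 mice, started by forcing plasmids into hepatocytes with a large, fast injection into the tail vein (hydrodynamic delivery). Every group shared MYC as a first driver. The second driver was p53 loss (an sgp53 construct in the names of set 2) or β-catenin (written bcat or CTNNB1), and the third element was luciferase alone (luc) or lucOS, luciferase joined to model antigens that T cells can recognise. Set 1 had 3 lucOS and 3 luc tumours with p53 loss, and 2 lucOS and 4 luc tumours with β-catenin. Set 2 had 4 lucOS tumours with p53 loss, and 3 lucOS and 3 luc tumours with β-catenin. The series concerns immune escape of β-catenin tumours. Ages are not in the labels, and neither is the number of animals behind a group, so p-values measure the spread between these tumour samples, which may in part be technical.

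MHC class II molecules carry peptides from endosomes to the surface of a cell, where CD4 T cells read them. An α and a β chain (H2-Aa with H2-Ab1 in this strain) are built around the invariant chain Cd74, Ctss trims Cd74 down to a short placeholder peptide, and the H2-DM dimer swaps that peptide for others. Ciita switches on the genes of the chains, Cd74 and H2-DM together. It does so either constitutively in dendritic cells and B cells or after interferon γ in other cells, and hepatocytes normally show little class II. In whole tumours, fewer cells of a type and less RNA per cell cannot be told apart.

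The genes for the class II chains and for H2-DM lie together on mouse chromosome 17 (GENCODE vM21, GRCm38, the same assembly as mm10): H2-Aa at 34282744 to 34287823 on the minus strand, H2-Ab1 at 34257689 to 34269419, H2-Eb1 at 34305867 to 34316674, H2-DMa at 34119541 to 34139101, H2-DMb1 at 34153072 to 34160230 and H2-DMb2 at 34143307 to 34151555 on the plus strand. Ciita lies on chromosome 16 at 10480059 to 10528418 and Ctss on chromosome 3 at 95526786 to 95556403. The class II promoters are known for an X box, read by the RFX complex, and a Y box, an inverted CCAAT element read by NF-Y, onto which Ciita docks without touching DNA itself. Promoter sequences were taken from RefSeq (GRCm38.p6), which had an entry for 6 of the 9 genes. They are shown for 3 genes that move together below, as the 150 bases before the RefSeq transcript start, 5′ to 3′ along the gene, with capitals marking TGATTGG (the Y box core) and a part of the X box, AAC followed after any 3 bases by TGATG.
H2-DMb2, chr17:34145099-34145235, plus strand: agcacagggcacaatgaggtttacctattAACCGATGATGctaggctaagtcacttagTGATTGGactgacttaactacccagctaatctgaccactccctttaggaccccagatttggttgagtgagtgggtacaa
H2-Aa, chr17:34287824-34287973, minus strand: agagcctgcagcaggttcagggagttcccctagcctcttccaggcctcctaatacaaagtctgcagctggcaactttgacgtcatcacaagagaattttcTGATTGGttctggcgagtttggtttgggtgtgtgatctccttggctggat
H2-Eb1, chr17:34305717-34305866, plus strand: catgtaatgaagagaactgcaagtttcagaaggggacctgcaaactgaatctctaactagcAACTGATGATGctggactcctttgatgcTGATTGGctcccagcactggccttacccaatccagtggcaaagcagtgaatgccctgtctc

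Both letter strings were searched on both strands in windows of 300 bases (250 before to 50 after the start), and they do not overlap each other in the hits shown. H2-DMb1, H2-DMb2 and H2-Eb1 held both, as did the related gene H2-Ob, with the Y box core 63, 92, 61 and 59 bases before the start and the X box letters 92, 121, 89 and 85 bases before it, in that order. H2-Aa and the related H2-Oa held TGATTGG alone, 50 and 45 bases before the start. H2-DMa and Ctss held neither in their windows. Of 32851 promoter windows, 7.82% held TGATTGG, 0.615% held the X box letters and 0.0517% held both. The letters were picked with these sequences known, so the matches are a description. Distances are from RefSeq's starts. Those of H2-Oa and H2-Ob lie inside the GENCODE genes, which begin shortly upstream of them. For H2-DMb2 and H2-DMb1 the RefSeq starts lie 13 and 119 bases inside an exon of the GENCODE annotation. The H2-DMb2 stretch is therefore shown only up to that exon, within the wider GENCODE gene, whose first transcript starts further upstream, and H2-DMb1, whose matches lie inside that exon, is not shown.

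Reads over genes ran from 33.706 M to 54.873 M per tumour in set 1 and from 33.551 M to 50.116 M in set 2, and values are normalised reads, that is reads divided by 1 size factor per tumour. The sets were scaled separately and were never compared by level. The driver labels matched their genes: Trp53 ran from 1423 to 2280 normalised reads in the p53 groups of set 1 and from 1345 to 2223 in that of set 2, below every β-catenin tumour (from 3296 and from 2631). The β-catenin target Axin2 reached at most 103 and 11 in p53 tumours and was at least 868 and 349 in β-catenin tumours. Set 2's lucOS p53 tumours 1, 2 and 3 carry the name prefix AL and tumour 4 carries JAX, as do all 6 β-catenin tumours there, so the prefix and the driver largely coincide. The lucOS p53 tumour 1 of set 1 stood apart for these genes, and results that rest on it are given with and without it.

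In set 2 the class II genes were lower in β-catenin than in p53 tumours that carried lucOS. Ciita, Cd74, the 3 chains and the 3 H2-DM genes (8 of 9) fell, by 3.15-fold to 5.68-fold, and Ctss did not pass the test. Over all 15625 genes tested in this comparison 10.9% were called lower and 6.08% higher (limma, adjusted p under 0.05, called here throughout). The median log2 difference of the 9 genes was -2.37, beside -0.16 for all genes. That shift of all genes came to -0.01 with TMM scaling, under which 1296 genes were called higher and 1055 lower, against 950 and 1706 as deposited, while the same count of 8 of these 9 genes was called lower.

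**Figure D1:**
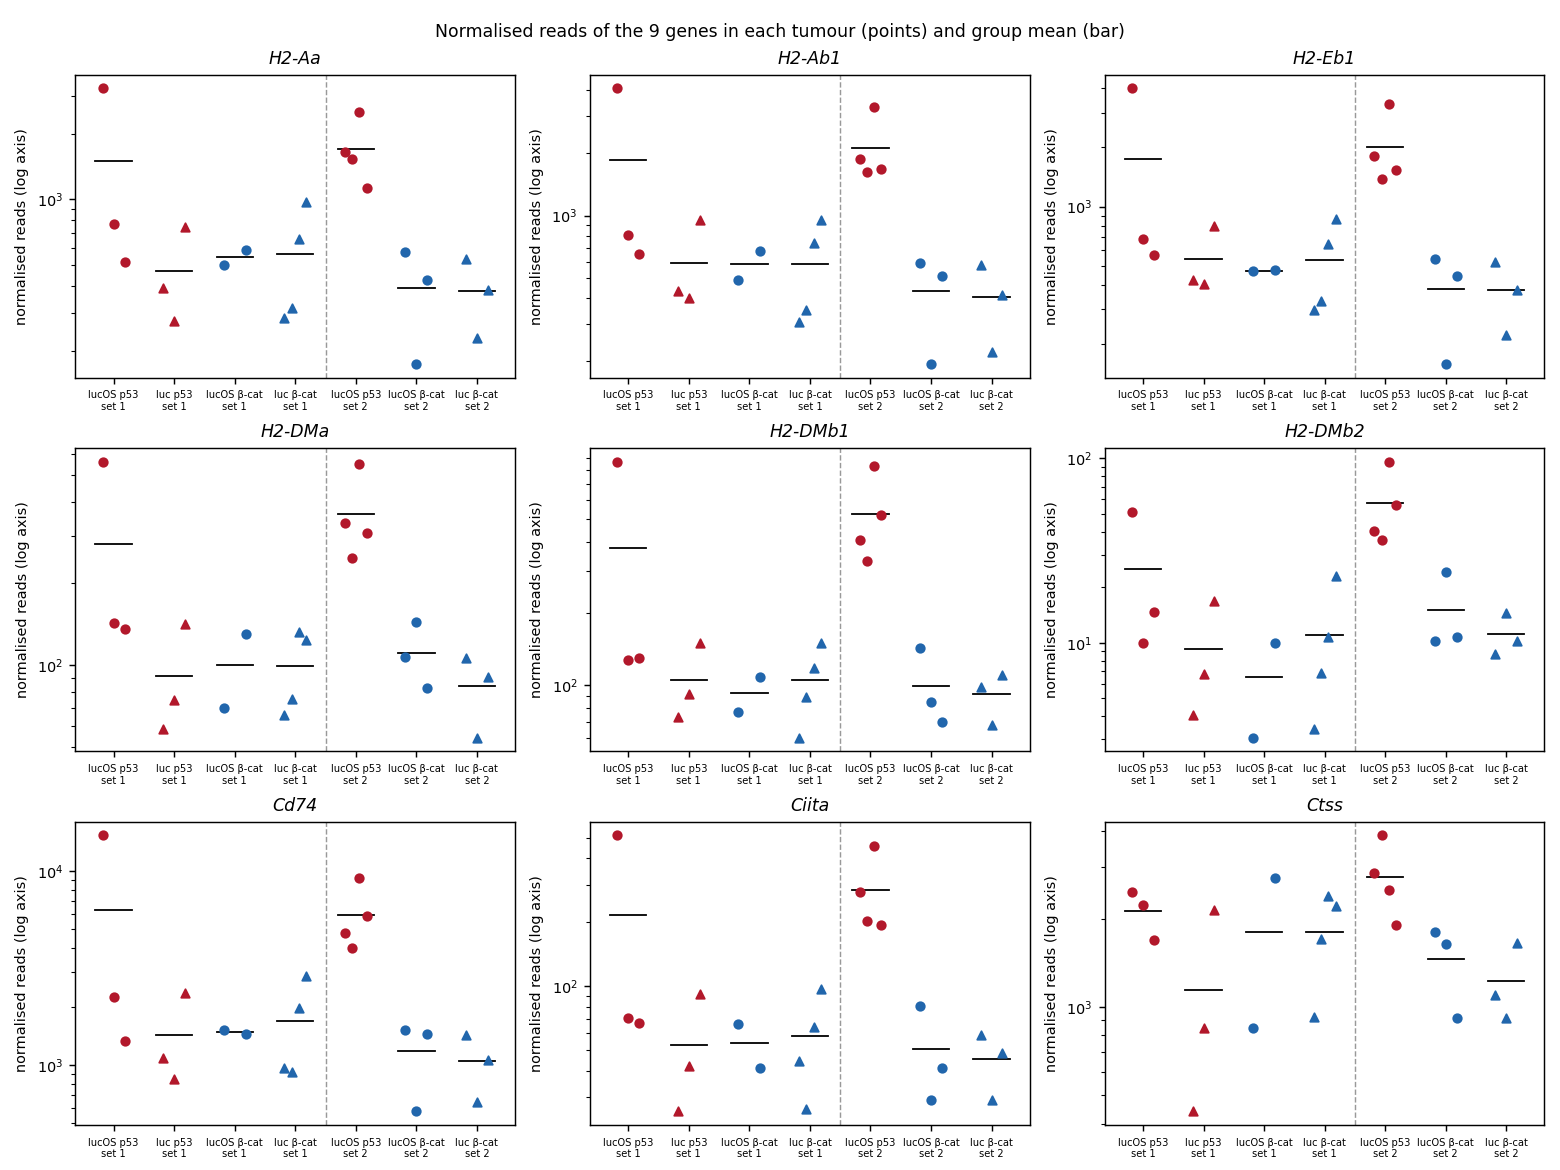
Normalised reads (log axis) of the 9 genes in each of the 22 tumours, by group, with the group mean as a bar; red marks p53 and blue β-catenin, circles lucOS and triangles luc, and the dashed line parts the separately scaled sets. In set 2 all 4 lucOS p53 tumours lie above the 6 β-catenin tumours in every panel, narrowly for Ctss. The share of all genes that did so against all 6 was not counted. In set 1 a single lucOS p53 tumour lies far above the rest in every panel but Ctss.

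Ciita, the regulator, stood at 278, 201, 458 and 194 normalised reads in the 4 lucOS p53 tumours of set 2. In the 3 lucOS β-catenin tumours it stood at 80.8, 29.0 and 41.1, and in the 3 luc β-catenin tumours at 58.8, 29.1 and 48.6. The lowest p53 tumour was 2.40 times the highest β-catenin tumour, so the groups did not overlap. Its log2 difference was -2.51 ± 0.45 (SE), a 5.68-fold lower level (adjusted p = 0.00908).

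Cd74, the chaperone that fills the groove of new class II molecules, was per kilobase the most abundant of the 8 genes that fell, and lies on chromosome 18, apart from the others. Its values were 4761, 4017, 9176 and 5865 in lucOS p53 tumours, against 1510, 579 and 1452 in lucOS β-catenin and 1434, 647 and 1061 in luc β-catenin tumours. Every p53 tumour lay at least 2.66 times above the highest β-catenin tumour. The group means were 5955 ± 2278 (SD, n = 4) and 1180 ± 522 (SD, n = 3), and the log2 difference was -2.39 ± 0.41 (SE; adjusted p = 0.00795).

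The α chain H2-Aa stood at 1649, 1531, 2507 and 1128 in lucOS p53 tumours and at 576, 175 and 428 in lucOS β-catenin tumours. Its partner H2-Ab1 stood at 1879, 1624, 3322 and 1672 against 594, 193 and 511. The other β chain, H2-Eb1, stood at 1796, 1382, 3322 and 1537 against 541, 158 and 441. In all 3 chains p53 tumour 3 was highest and β-catenin tumour 2 lowest, and no p53 tumour overlapped the β-catenin tumours. The log2 differences were -2.22 ± 0.44, -2.38 ± 0.46 and -2.49 ± 0.47 (SE), with adjusted p-values of 0.0126, 0.011 and 0.0109.

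The class II chains kept close proportions to each other across tumours. The ratio of H2-Aa to H2-Ab1 normalised reads was 0.684 to 1.03 over the 12 tumours of set 1 and 0.674 to 1.04 over the 10 of set 2. That of H2-Eb1 to H2-Ab1 was 0.705 to 1.01 and 0.820 to 1.01. No partner for H2-Eb1 was seen: H2-Ea-ps, the disabled H2-Ea gene of this strain's haplotype, was at 0 reads in all 22 tumours, which allows up to 3 reads in each.

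Among the peptide editors, H2-DMb1 stood at 407, 332, 835 and 519 in lucOS p53 tumours and at 143, 84.6 and 69.9 in lucOS β-catenin tumours of set 2. Its difference, -2.37 ± 0.38 on the log2 scale (SE), had the lowest adjusted p of the 9 genes, 0.00624. H2-DMa, the α chain of the editor, stood at 333, 248, 551 and 307 against 107, 144 and 82.3, with a smaller log2 difference of -1.66 ± 0.36 (SE; adjusted p = 0.0168). H2-DMb2 stood at 40.2, 35.9, 95.5 and 55.8 against 10.2, 24.0 and 10.7, with a log2 difference of -1.85 ± 0.47 (SE; adjusted p = 0.028). The transcripts of H2-DMb1 and H2-DMb2 share 95.2% of 1094 aligned bases, with an identical run of 221 bases, so how reads were split between them is uncertain. H2-DMb2 missed the threshold (adjusted p from 0.0526 to 0.0856) when p53 tumour 1, 3 or 4 or lucOS β-catenin tumour 1 or 3 was left out, and H2-DMa missed it (0.0579) without lucOS β-catenin tumour 3.

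Ctss, which trims Cd74 but is also made by macrophages for other work, differed least. It stood at 2867, 3858, 2511 and 1905 in lucOS p53 tumours, at 1811, 1639 and 919 in lucOS β-catenin and at 1096, 915 and 1661 in luc β-catenin tumours. The lowest p53 tumour was 1.05 times the highest β-catenin tumour. Its log2 difference was -0.95 ± 0.31 (SE; adjusted p = 0.0636), and the adjusted p ran from 0.0488 (without p53 tumour 4) to 0.787 over the alternatives tried.

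All 9 genes were thus non-overlapping between the p53 tumours of set 2 and its lucOS β-catenin tumours, where 22.5% of all genes tested did not overlap in that direction and 10.3% in the other. With the AL-named tumours left out, a single p53 tumour stood against the β-catenin tumours, assumed to vary like the other groups. None of the 9 genes was then called by limma, with adjusted p-values from 0.267 to 0.787, and 23 of all genes were. The log2 differences of the 8 genes were still -1.49 to -2.45. That JAX-named p53 tumour lay above all 6 β-catenin tumours in each of the 9 genes, narrowly for Ctss (1905 against 1811). How many of all genes were highest in that tumour was not counted, and a single tumour gives no spread. A part of the name prefix in the difference cannot be told apart from the driver beyond this.

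**Figure D2:**
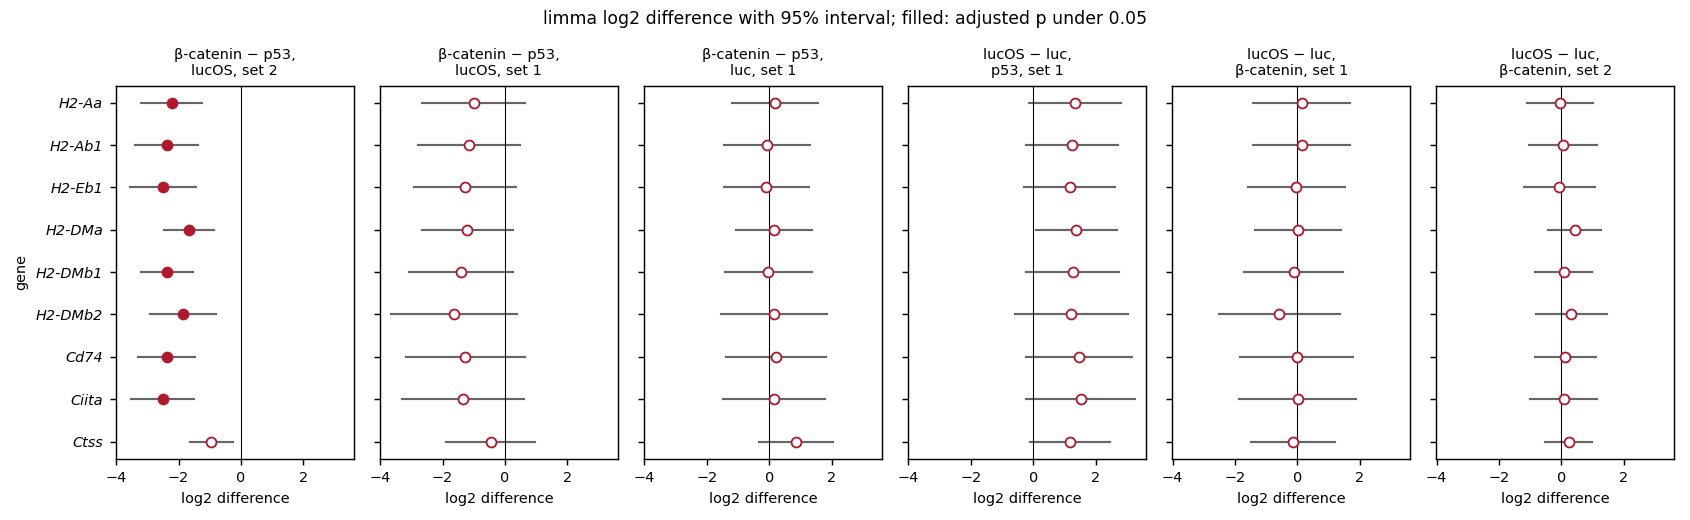
Log2 difference (x axis, limma) of the 9 genes with its 95% interval in 6 comparisons; filled points have an adjusted p under 0.05. Filled points occur in the comparison of set 2's lucOS tumours alone, for 8 of the 9 genes.

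In set 1 the same comparison had the same sign for all 9 genes and called none. Ciita stood at 512, 70.7 and 67.2 in the 3 lucOS p53 tumours and at 66.5 and 41.1 in the 2 lucOS β-catenin tumours. Cd74 stood at 15222, 2246 and 1328 against 1512 and 1438. The log2 differences ran from -1.64 (H2-DMb2) to -0.45 (Ctss), with a median of -1.27 beside -0.15 for all genes, and limma's adjusted p-values from 0.291 to 0.721. None of the 9 had an unadjusted p under 0.05, and edgeR and DESeq2 called none either, where limma called 4.21% of 16108 genes (2.59% lower, 1.62% higher). H2-Eb1, H2-DMa, H2-DMb1 and Ciita did not overlap between the groups, as did 24.3% of all genes in that direction and 13.5% in the other.

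Those differences rested in good part on lucOS p53 tumour 1. Its Cd74 was 5.28 times that of the next tumour and 10.6 times the median of the other 11, Ciita 5.28 and 7.95 times, H2-DMb1 5.74 and 7.98 times, and H2-Eb1 4.63 and 8.35 times. H2-Ab1 stood at 4093 there against 805 and 653 in the other two lucOS p53 tumours, and H2-Aa at 3238 against 769 and 517. H2-DMa and H2-DMb2 were 3.90 and 2.21 times the next tumour. Ctss, at 2465, was below the 2768 of a lucOS β-catenin tumour and so was the exception. Without tumour 1 the log2 differences between the drivers shrank to -0.22 (H2-Aa) to -0.97 (H2-DMb2), with a Cd74 value of -0.23, a Ciita value of -0.39 and adjusted p-values from 0.609 to 0.888, and 207 of all genes were called.

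Tumour 1 was not as far apart in general leukocyte genes. The leukocyte gene Ptprc was 1.13 times the next tumour, Laptm5 and the macrophage gene Csf1r were within the range of the others, and the summed level of the 8 leukocyte markers was 6754, within the 1739 to 8332 of the other tumours. Itgax, found on dendritic cells and some macrophages, was 1.84 times the next tumour at 1037, and the 12 dendritic cell markers summed to 2515, within the 1858 to 6730 of the others. Bst2, which many cells make, carried most of those sums, and without it tumour 1 was highest, at 1425 against 327 to 882, of which Itgax made up 1037. The T cell markers (9 of 10 matched) summed to 762 against at most 490 elsewhere in set 1, with Cd3e 2.04 and Cd8a 2.37 times the next tumour. B cell markers (9 of 10 matched) summed to 334 against at most 204, but without the plasma cell gene Jchain to 95.6, within the 40.9 to 153 of the others. The Kupffer cell genes Clec4f and Vsig4 stood at 4.47 and 10.7 there, against medians of 363 and 193 in the other 11 tumours. Other tumours were as low as 5.43 and 0, and Clec4f values of that size rest on few reads. The 14 macrophage and Kupffer cell markers summed to 15696, within the 3222 to 24390 of the others. The part of these cell types in tumour 1's class II level was not tested.

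**Figure D3:**
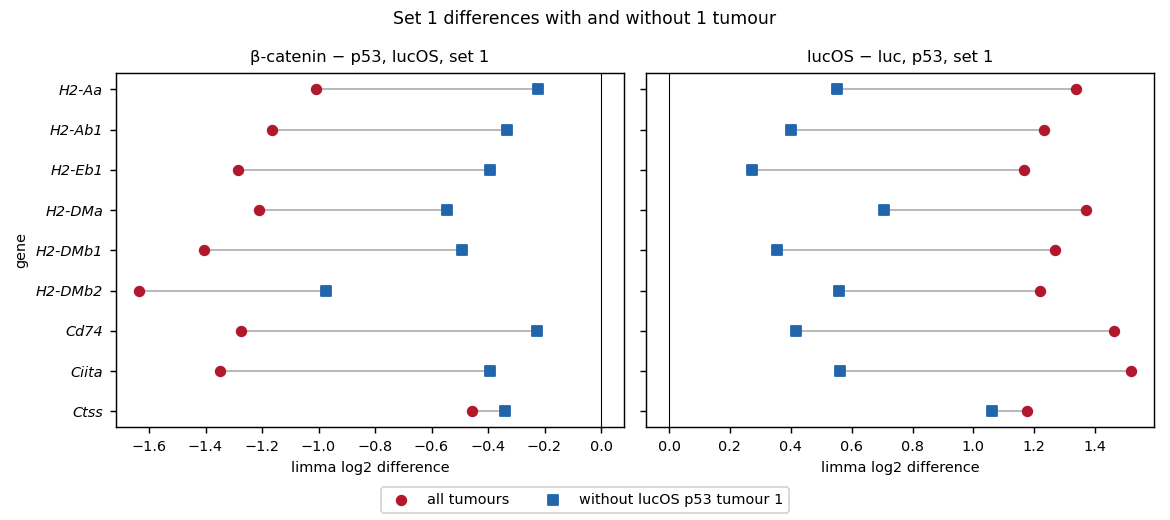
Log2 differences (x axis, limma) of the 9 genes in 2 comparisons of set 1, with all tumours (red circles) and without lucOS p53 tumour 1 (blue squares). Leaving that tumour out moves all 9 genes towards 0 in both comparisons, from -1.27 to -0.23 for Cd74 between the drivers, and Ctss the least.

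Without the model antigens, set 1 showed no called difference between the drivers. Ciita stood at 25.8, 42.0 and 91.5 in luc p53 tumours and at 44.2, 26.5, 64.4 and 97.0 in luc β-catenin tumours. Cd74 stood at 1081, 850 and 2357 against 967, 918, 1966 and 2883, and H2-Ab1 at 435, 402 and 948 against 307, 351, 737 and 948. The groups overlapped in all 9 genes, where 23.2% of all genes did not overlap and were lower and 10.9% did not overlap and were higher. Log2 differences ran from -0.09 (H2-Eb1) to 0.87 (Ctss), with 6 above 0, and H2-Ab1, H2-DMb1 and H2-Eb1, which were below 0, turned positive under TMM, median centring, edgeR and DESeq2. Limma's adjusted p-values were 0.291 to 0.983, no unadjusted p was under 0.05, and edgeR and DESeq2 called none of the 9, while limma called 15.1% of all genes (9.16% lower, 5.93% higher). The 95% interval of the log2 difference was -1.39 to 1.81 for Cd74 and -1.48 to 1.81 for Ciita.

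Whether the driver difference in set 1 depended on the antigen was tested as an interaction. All 9 estimates were below 0, from -1.79 to -1.10 on the log2 scale with a median of -1.36 beside 0.01 for all genes, and none was called (limma adjusted p 0.9998). With tumour 1 left out, the Cd74 estimate moved from -1.49 to -0.44. Over all genes limma and edgeR called 0% here (436 and 595 genes had an unadjusted p under 0.05), and DESeq2 called 17. Set 2 held no luc p53 tumours, so the question cannot be put there.

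The effect of the antigen itself was measured within each driver. Within p53 tumours of set 1, the means of lucOS and luc tumours were 217 ± 256 and 53.1 ± 34.2 for Ciita, 6265 ± 7770 and 1429 ± 812 for Cd74, and 2130 ± 391 and 1146 ± 890 for Ctss (SD, n = 3 each). All 9 log2 differences were positive, from 1.17 to 1.52, with 95% intervals that included 0 except for H2-DMa (0.07 to 2.67), the one gene of the 9 with an unadjusted p under 0.05 (0.0402). None was called by limma (adjusted p = 0.952), edgeR or DESeq2. Limma and edgeR called 0% of all genes in that comparison (722 and 768 had an unadjusted p under 0.05), and DESeq2 called 9. The groups overlapped in all 9 genes, while 5.07% of all genes did not overlap and were lower and 4.63% did not overlap and were higher. Leaving out tumour 1 took 8 of the differences down to between 0.27 and 0.71, whereas that of Ctss stayed at 1.06. Ctss ran at 1.53 to 2.22 times Ptprc in luc p53 tumours and at 2.25 to 3.42 times in lucOS p53 tumours, ranges that nearly touch. In β-catenin tumours of set 1 it ran at 2.41 to 3.70 times with luc and 2.37 to 3.45 times with lucOS. This ratio was not tested in set 1.

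Within β-catenin tumours the antigen went with no difference that passed a test in either set. In set 1 the log2 differences ran from -0.57 (H2-DMb2) to 0.14 (H2-Aa), and in set 2 from -0.07 (H2-Eb1) to 0.42 (H2-DMa). The groups overlapped in all 9 genes, all adjusted p-values from limma were 1, no unadjusted p was under 0.05, and edgeR and DESeq2 called none of the 9. In set 2 the 95% interval for Cd74 was -0.86 to 1.10 and that for Ciita -1.01 to 1.15, whereas in set 1, with 2 lucOS tumours, the Cd74 interval was -1.83 to 1.79. Limma and edgeR called 0% of all genes in either set, with 222 and 405 genes in set 1 and 288 and 371 in set 2 at an unadjusted p under 0.05. DESeq2 called 18 and 10. Groups that did not overlap made up 2.95% (lower) and 3.4% (higher) of all genes in set 1 and 2.36% and 2.18% in set 2.

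Compared per kilobase of transcript, levels differed widely between the 9 genes. In set 1 the median over tumours was 1423 normalised reads per kilobase for Ctss, 1046 for Cd74, 549 for H2-Ab1, 489 for H2-Aa, 313 for H2-Eb1, 80.7 for H2-DMb1, 76.8 for H2-DMa, 15.5 for Ciita and 7.0 for H2-DMb2. The order held in every tumour at the steps from Cd74 to H2-Ab1, H2-Aa to H2-Eb1, H2-Eb1 to H2-DMb1, H2-DMa to Ciita and Ciita to H2-DMb2. Ctss was above Cd74 in 6 of 12 tumours only, counted over all groups together, and H2-Ab1 was above H2-Aa in 9 of 12. Set 2 gave the same order of medians except that H2-Aa (491) and H2-Ab1 (485) changed places. H2-Aa was above H2-Ab1 in only 3 of 10 tumours there, so the swap is one of medians alone. Ctss was above Cd74 in 4 of 10 tumours of set 2, and Ciita above H2-DMb2 in 8 of 10. The ratio of Cd74 to Ciita normalised reads, not per length, was 19.8 to 41.9 in set 1 and 17.1 to 35.3 in set 2.

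Genes around the pathway moved less uniformly in set 2's driver comparison. Over all genes tested there, 10.9% were called lower and 6.08% higher, with a median log2 difference of -0.16. Whether any list below held more called genes than that share was not tested. Of the other class II genes, H2-Eb2, a second E β-chain gene, was called lower: it stood at 20.1, 12, 24.9 and 16.6 normalised reads in lucOS p53 tumours and at 2.91, 0 and 0 in lucOS β-catenin tumours (log2 difference -3.58, adjusted p = 0.0125, a value that depends on the pseudocount at such low reads). H2-Ob, a β chain of the H2-DM antagonist, was not called (-1.23, adjusted p = 0.0999), and its partner H2-Oa, at 4.97 to 7.36 against 1.66 to 3.29, did not pass the filter in set 2.

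Of 14 genes that process antigens for class II, 3 were called lower and none higher, with a median log2 difference of 0.32. Over all genes 10.9% were called lower and 6.08% higher, with a median of -0.16. Ifi30, a thiol reductase that unfolds antigens, went from 5744 ± 1368 (n = 4) to 1623 ± 998 (SD, n = 3; log2 difference -1.97, adjusted p = 0.0114). The protease inhibitor Cst7 (-2.04, adjusted p = 0.0403) and the tetraspanin Cd37 (-1.29, adjusted p = 0.0455) were the other two. In set 1 Ifi30 differed by -1.88 with lucOS and by -1.57 with luc and was not called, and Sppl2a, which cuts the membrane stub of Cd74, was called higher in luc β-catenin tumours (5687 ± 1315, n = 4, against 2709 ± 256, n = 3; adjusted p = 0.00614).

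Among 15 genes of class II transcription, 3 were called lower in set 2: Rfxap, an RFX subunit (-0.91, adjusted p = 0.0264), Nfyb, an NF-Y subunit (-0.60, adjusted p = 0.0487), and Irf8, a factor of myeloid cells (-1.23, adjusted p = 0.0495). The list's median was -0.49, beside -0.16 for all genes, of which 10.9% were called lower. Rfx5, the RFX subunit that binds the X box, was not called (-0.40 ± 0.54 SE, adjusted p = 0.635). Its levels, 1236 to 6859 (median 1390) in lucOS p53 and 1309 to 2061 (median 1311) in lucOS β-catenin tumours, overlapped.

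On the interferon γ route to Ciita, 2 of 8 kept genes were called lower in set 2, where 10.9% of all genes were. Of the 8, 7 had negative estimates, with a median log2 difference of -0.52 beside -0.16 for all genes. Socs1, an interferon-induced brake, stood at 28.5 to 59.8 in lucOS p53 and 6.55 to 9.95 in lucOS β-catenin tumours (-2.22, adjusted p = 0.014). Irf1, which binds the interferon-responsive Ciita promoter, differed by -0.78 with an adjusted p of 0.0499. Ifng itself was at 0, 8, 5 and 1 reads against 0, 2 and 0 and did not pass the filter, so no difference was detectable at this depth. In set 1 none of these genes was called by limma in either driver comparison.

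Of 5 genes for the CD74 ligand Mif and its partners, the chemokine receptors Cxcr2 (-2.16, adjusted p = 0.0355) and Cxcr4 (-2.06, adjusted p = 0.0477) were called lower in set 2. The median of these 5 was -0.81, with 3 estimates below 0 and 2 above. Of 10 kept genes on the CD4 T cell side, which includes costimulators of the presenting cell, 2 were lower, the T cell costimulator Icos (-1.68, adjusted p = 0.0372) and the Th1 regulator Tbx21 (-2.70, adjusted p = 0.0151). All 10 of that list had negative estimates, with a median of -1.46, beside -0.16 for all genes. Over all genes 10.9% were called lower in that comparison of set 2. In set 1, 0 genes of either list were called by limma in the driver comparisons.

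Markers of some other cells, but not of all, were also lower with β-catenin in set 2's lucOS tumours. There 10.9% of all genes were called lower and 6.08% higher. Of 8 leukocyte markers, 3 were called lower with β-catenin (Ptprc, Coro1a and Rac2; median -1.02), and their summed level was 6243 to 10703 in p53 and 2418 to 5523 in β-catenin tumours. Of 9 matched T cell markers 8 were called lower (median -2.38), with sums of 392 to 928 against 129 to 142. Of 11 kept dendritic cell markers 2 were lower, Ccr7 (-2.26) and Siglech (-3.59), and the sums of all 12, 2648 to 6035 against 2751 to 4798, overlapped, whereas without Bst2 they did not (826 to 1367 against 375 to 706). The cross-presenting dendritic cell genes Xcr1 (0.49) and Clec9a (-0.40) were not called. Of 6 kept B cell markers none was called by limma, 5 had negative estimates (median -1.11), and the sums, 108 to 417 against 59.7 to 540, overlapped. The 540 held 463 of Cr2 in a single tumour, and without Cr2 the sums were 103 to 408 against 54.7 to 97.5, with Blk and Pax5 each at 0 in a β-catenin tumour. Of 14 macrophage markers 2 were lower (Adgre1 and Csf1r) and 2 higher, the Kupffer cell genes Clec4f (at 0 in a lucOS p53 tumour and at most 11.9 in that group) and Vsig4, and the sums were 13268 to 24289 against 8525 to 18263. Endothelial markers (8) had 2 called lower and 3 positive estimates (median -0.30), and their sums, 7941 to 10843 against 4193 to 7067, did not overlap. None of 7 hepatocyte and 6 bile duct markers was called by limma, and the sums of either list overlapped. The part of each cell type in the class II difference was not tested.

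**Figure D4:**
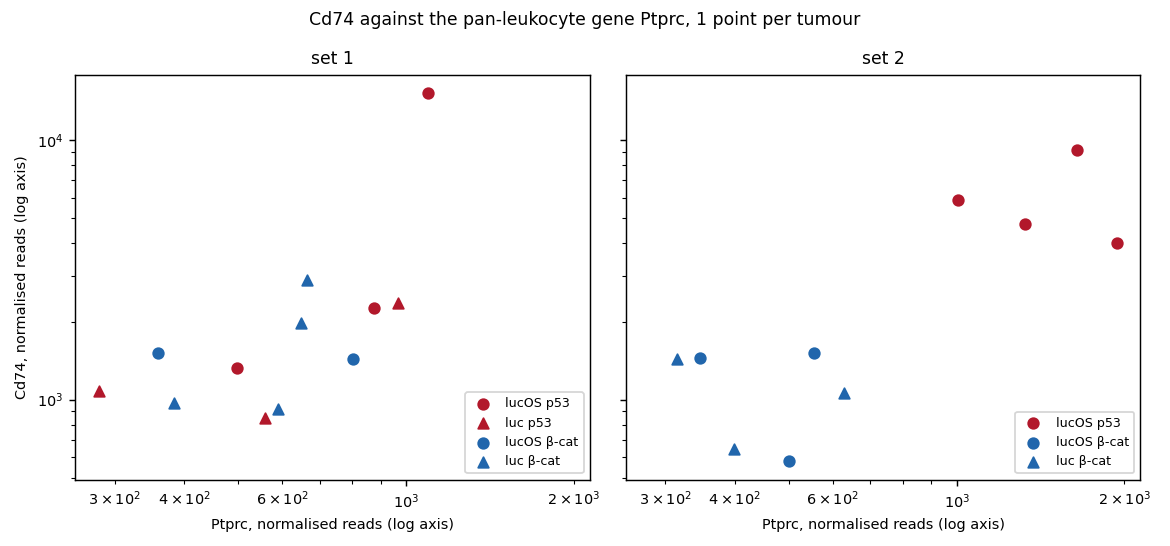
Cd74 against the leukocyte gene Ptprc, both in normalised reads on log axes, 1 point per tumour, by set. In set 2 the p53 tumours lie higher on both axes, and in set 1 lucOS p53 tumour 1 lies far above tumours of like Ptprc level.

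Ptprc, present on all leukocytes, stood at 1328, 1940, 1647 and 1005 in lucOS p53 and at 555, 500.02 and 347 in lucOS β-catenin tumours of set 2. Relative to Ptprc, Cd74 came to 4.27 ± 1.78 (SD, n = 4) in lucOS p53 and 2.69 ± 1.51 (SD, n = 3) in lucOS β-catenin tumours, ranges that overlapped (two-sided exact permutation p = 0.286, 0.429 adjusted over 5 ratios). H2-Ab1 per Ptprc (1.48 against 0.976; exact p = 0.343) and Ciita per Ptprc (0.196 against 0.107; exact p = 0.171) likewise had lower means in β-catenin tumours, with overlapping ranges. With 3 tumours against 4 no ratio could reach a p under 0.05, so these values do not show that the ratios were alike. Ctss per Ptprc had the higher mean in β-catenin tumours, 3.06 ± 0.36 (n = 3) against 1.89 ± 0.27 (SD, n = 4), with no overlap, at the smallest p this design allows (exact permutation p = 0.0571, adjusted 0.286). Cd74 per Ciita was 24.6 against 21.8, with overlapping ranges (exact permutation p = 0.571). In set 1 Cd74 per Ptprc was 13.9 in lucOS p53 tumour 1 and 1.53 to 4.35 in the other 11 tumours.

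The genes whose log2 levels most resembled the mean of the 9 were sought among 15369 genes kept in both sets, ranked by the lower of the correlations over 12 tumours of set 1 and 10 of set 2. They were Mir5107 (lower r of 0.97), Cxcr6 (0.90), Apol10b (0.87), Ms4a6b (0.86), Itgax (0.83), Cd5 (0.83), Gbp2 (0.82) and Lpcat2 (0.82). Mir5107 lies inside Cd74, so its reads cannot be told apart from those of Cd74. These points share libraries and the groups, and the correlations are a description. Of the 9 genes themselves, 8 had a lower r of 0.85 to 0.98 with that mean, which contains them, and Ctss one of 0.67. Without lucOS p53 tumour 1 the first 8 were Mir5107, Ms4a6b, Lpcat2, Aif1, Dock10, Ms4a6c, Cd52 and Adcy7, of which 3 were shared, and Itgax, Cd5 and Gbp2 moved to ranks 116, 236 and 316.

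Since these genes were chosen for following the 9, their group values are a description. Ms4a6b, a membrane protein of leukocytes and still near the top without tumour 1, had means of 180 ± 54.4 in lucOS p53 (n = 4) and 52.9 ± 14.3 in lucOS β-catenin tumours (SD, n = 3) of set 2. Lpcat2, a lipid-remodelling enzyme, had 290 ± 92.9 against 122 ± 19.0. Cxcr6, a chemokine receptor of T and NK cells, had means of 46.3 ± 15.3 in lucOS p53 (n = 4) and 13.2 ± 3.53 in lucOS β-catenin tumours (SD, n = 3) of set 2. Gbp2, an interferon-induced GTPase, had 876 ± 325 against 159 ± 78.0. Itgax had 788 ± 154 against 292 ± 177, and Cd5, a T cell surface protein, had 25.8 ± 10.9 against 5.03 ± 2.12.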

How the data were processed

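RNA of 22 mouse liver tumours was sequenced, and the authors deposited a normalised signal per gene in 2 tables. Per the submitters' processing notes, TopHat2, featureCounts, DESeq2 and mm10 were used; versions and strand use are not given in the sources used here. The deposited signal is reads divided by 1 size factor per tumour: dividing by a tumour's lowest nonzero value gave whole reads for 100% of values, within 0.01 reads. The first table lists 33068 transcripts, the most abundant of which stood for each gene. There 53 symbols turned into dates were restored, and 27 date numbers were left out of the second table. A gene was kept if at least 2 tumours of set 1, or 3 of set 2, reached 10. Limma 3.58.1 (trend, R 4.3.3) was fitted to log2(value + 1), all groups of a set in 1 fit, with Benjamini-Hochberg adjustment over all kept genes and a threshold of 0.05. Fold changes are on that scale and understate changes of low genes. All adjusted p-values are limma's unless named otherwise. The script was tested on simulated data. EdgeR 4.0.16 and DESeq2 1.42.0 on the recovered reads, TMM, median centring, other pseudocounts and filters, and leaving out each tumour were alternatives. Floors are 3 reads per tumour, and cover counting error only.

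The 9 genes and all lists were chosen with earlier results of these data known. The text names the 9 genes, called members of the pathway lists, 7 further pathway genes whether called or not (1 of them is not reported here), the 8 genes most like the 9, and Trp53 and Axin2. Marker sums without Bst2, Jchain or Cr2 were added after seeing the data. Markers named beside a result are those called or those that define a cell type. Comparisons within set 2 share controls: the lucOS β-catenin tumours enter both the driver and the antigen comparison there, and each set 1 group enters several comparisons.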

Additional observations from a re-analysis of the deposited data

Results flagged for a closer look

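H2-Ab1 in lucOS p53 tumour 3 of set 2 stood far from the other 3 tumours of its group: 3322 normalised reads against 1624, 1672 and 1879. The gap to the nearest was 0.85 of the group's whole range, above Dixon's critical value for 4 samples. Of 18 groups of 4 tumours tested over the 9 genes, this was the 1 that passed. Chance passes about 1 in 20, so 1 pass among 18 is about what chance gives. The 18 tests reuse the same tumours for genes that move together, so they are not separate. Tumour 3 was highest of its group in 8 of the 9 genes. Without it the H2-Ab1 difference between drivers in set 2 was -2.14 on the log2 scale (limma adjusted p = 0.0334), against -2.38 with it.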

How the results depend on the processing

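In set 2, between drivers with lucOS, 8 of the 9 genes were called under TMM, median centring, pseudocounts of 0.5 and 5, no filter, the compared groups alone, edgeR and DESeq2. A filter at 50 removed H2-DMb2 and left 7, leaving out 1 tumour gave 6 to 8, and with JAX-named tumours alone 0 were called, where all 9 estimates stayed negative (median -2.05) and the p53 group held 1 tumour. In the other comparisons 0 of the 9 were called under every alternative run. Directions turned for values that were never called. When a tumour was left out, Cd74 between drivers with luc ran from -0.10 to 0.64, Ciita there from -0.25 to 0.65, and Ctss between drivers with lucOS in set 1 from -1.31 to 0.40. H2-Ab1, H2-DMb1 and H2-Eb1 with luc turned with scaling.

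Counts over all genes moved more. With lucOS in set 2, 2656 genes became 23 (JAX names), 2230 (edgeR), 3842 (DESeq2) and 1127 to 2209 without 1 tumour. With lucOS in set 1, 678 became 18 (compared groups alone), 418 (edgeR), 2053 (DESeq2) and 76 to 951 without 1 tumour. With luc, 2431 became 1785 (edgeR), 3303 (DESeq2) and 812 to 1964 without 1 tumour. In the antigen and interaction comparisons limma called 0, except 1 in β-catenin tumours of set 1 with no filter, while DESeq2 called 9 in p53 tumours, 18 and 10 in β-catenin tumours of sets 1 and 2, and 17 for the interaction. The cause of these shifts was not tested. As called higher and lower, TMM gave 326 and 203 against 261 and 417 with lucOS in set 1, and 1229 and 679 against 956 and 1475 with luc. No paired analysis was run because the labels give no pairing of tumours. H2-DMb2, H2-Eb2, H2-Oa and Ifng rest on few reads, which limits their precision.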

Other observations

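Cd74 is made in a short form and in a long form that keeps 1 more exon of 192 bases (exon 7 of the long form), which codes for a thyroglobulin-type domain known to bind cathepsins. The first table lists both transcripts, and reads of the long form include almost all reads of the short form. The surplus of the long form therefore counts reads given to that form alone. Reads that reach from the extra exon into a shared one may count for both forms, so the surplus may be less than all reads in that exon. The surplus was 2.46%, 3.07%, 2.64% and 2.37% of Cd74 reads in the 4 luc β-catenin tumours. In the other 8 tumours it was 1.60% to 2.01%, including 1.80% (Wilson 95% interval 1.61% to 2.01%, 306 of 17030 reads) in lucOS p53 tumour 1, whose Cd74 level was the highest. The group means were 2.64 ± 0.31% (SD, n = 4) in luc β-catenin, 1.85 ± 0.21% (SD, n = 3) in luc p53, 1.78 ± 0.07% (SD, n = 2) in lucOS β-catenin and 1.75 ± 0.09% (SD, n = 3) in lucOS p53 tumours. The luc β-catenin tumours did not overlap luc p53 tumours (two-sided exact permutation p = 0.0571) or lucOS β-catenin tumours (exact p = 0.133), and both are the smallest p these numbers of tumours allow. Adjusted over 3 comparisons they were 0.171 and 0.2. Single tumours rest on 12 to 306 surplus reads, and the Wilson intervals were wide. Those of luc β-catenin tumours 1 (1.62% to 3.73%) and 4 (1.89% to 2.97%) overlapped that of lucOS p53 tumour 1. Those of luc β-catenin tumours 2 (2.19% to 4.28%) and 3 (2.05% to 3.40%) lay above it. The pattern was noticed after the values were seen, and the second table lists genes only, so it could not be looked for in set 2. The 2 listed transcripts of Ctss held identical reads in every tumour, and the 3 of Ciita differed by at most 4 reads.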
